A study of Mus musculus with 12 samples.

Results

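The genes described here are the 115 rows of the count table, of 34245 in all, whose symbols begin with Nduf, Uqcr, Cox and a digit or Atp5, are Sdha to Sdhd, or belong to the protein-coding genes of the mitochondrial genome. Rows named as pseudogenes (-ps) were left out. By name and known role, 102 of them are nuclear genes and 13 are mitochondrially encoded. The nuclear genes comprise 7 core and 29 accessory subunits of complex I, 4 subunits of complex II and 8 of complex III. A further 11 are common subunits of complex IV, 9 are other complex IV isoforms or relatives, and 16 are complex V rows. The rest are 9 assembly factors each of complex I and complex IV, which are helper proteins and not subunits. Poly(A) RNA was sequenced from 2 sorted cell populations of the mouse small intestine at 2 ages, with 3 libraries in each of 4 groups. Intestinal stem cells (ISC) were crypt cells bright for GFP. The villus population (AE) consisted of epithelial cells bright for Epcam and free of the endothelial marker CD31 and the leukocyte marker CD45. Per the study's methods, crypts were dissociated with enzymes and ISC were sorted without the antibody stain, so cells with CD45 or CD31 were not gated out. Differences between AE and ISC therefore cannot be told apart from differences in preparation. All groups were male C57BL/6 mice that carried the Lgr5-EGFP-IRES-CreERT2 knock-in, which reports the stem cell gene Lgr5 and is mosaic in the intestine, so that the stem cell libraries hold only crypts in which the allele was active. Young mice were about 8 and aged mice about 27 months old, and the study's methods list 3 mice of each age for RNA sequencing. No treatment was given.

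Oxidative phosphorylation passes electrons from NADH (complex I) and succinate (complex II) through complex III to oxygen at complex IV, and the proton gradient so built drives ATP synthesis at complex V. Complex II is wholly nuclear-encoded, whereas the core of the other complexes is built from proteins of both genomes with the help of assembly factors that insert haem, copper and iron-sulphur centres or hold intermediates together. In the intestine, the absorptive cells of the villus are known for dense mitochondria and for the ATP they spend on nutrient transport.

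The libraries held between 11893817 and 26796461 counts, except young AE replicate 3 with 110794420. Marker genes followed the sort. Of the stem cell markers, 12 of 12 were lower in AE at both ages, and of 16 enterocyte markers 15 were higher in young and 16 in aged mice (edgeR quasi-likelihood test, false discovery rate, FDR, under 0.05). The enterocyte markers summed to 4118 to 10356 CPM (counts scaled to a common library size) in young ISC, 1856 to 5849 in aged ISC, 74891 to 95983 in young AE and 99284 to 116996 in aged AE. CPM values carry edgeR's TMM factors, which set the level of most genes equal between libraries. These factors were 1.26 to 1.37 in ISC and 0.720 to 0.823 in AE, so the same gene looks higher in AE with them than as a share of all counts. Nuclear members took 2.09 to 3.08% of the counts in ISC and 1.49 to 2.07% in AE, and mitochondrially encoded members took 0.945 to 3.48% and 2.43 to 6.67%. Only uniquely mapped reads were counted, so the mitochondrial shares leave out reads that also fit another locus, as described below. Genes listed for other cell types also had counts. The 8 goblet cell genes summed to 27957 to 56905 CPM in AE and 1323 to 2181 CPM in ISC. The 10 myeloid genes summed to 118 to 4714 CPM in AE and 44.6 to 1776 CPM in ISC, the lowest being young replicate 3 of each cell type. Of these, S100a8 and S100a9 were at 3 counts or fewer in every library, and Csf1r and Adgre1 in every library outside young AE. The myeloid sum by itself therefore does not show myeloid cells. The part of other cell types in the results was not tested. In bulk samples, fewer cells of a type and less RNA per cell cannot be told apart.

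Of the 115 members, Cox4i2, Cox7b2, Cox8b and Cox8c, isoforms known from lung, testis or muscle, had 0 counts in every library. A member was tested where its total reached 10 counts over the libraries compared. This left 110 members for the comparison of AE with ISC in young mice, 109 in aged mice, 108 for age in ISC and 110 for age in AE.

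The first question was how villus cells differ from the stem cells they descend from. In young mice, 21 of 110 members were higher and 12 lower in AE, against 28.9% of all genes tested called higher and 26.7% lower (55.6% either way). In aged mice, 24 of 109 members were higher and 18 lower, against 30.6% and 34.2% of all genes (64.9% either way). The counts split by role. Mitochondrially encoded members made up 11 of the members called higher at each age. Of these, 7 were well counted at both ages, and the rest had low counts, as described below. Nuclear structural subunits mostly were not called, with 6 higher and 1 lower of 74 in young and 7 higher and 6 lower in aged mice. Assembly factors were called 9 times lower and 3 times higher of 18 in young mice, and 10 times lower and 4 times higher in aged mice. The median log2 fold change was 0.13 in young and 0.0037 in aged mice for structural subunits and -0.53 and -0.75 for assembly factors, beside 0.15 and -0.13 for all genes tested. Between the ages, 19 members were called higher and 12 lower at both, 65 were called at neither, and none changed direction.

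**Figure D1:**
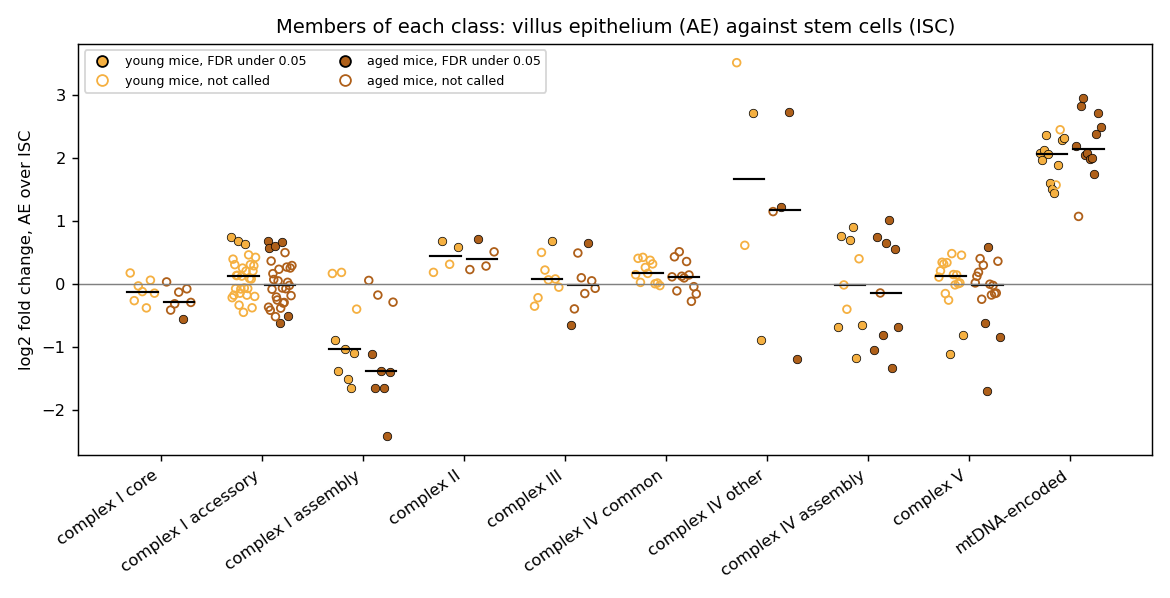
Log2 fold change of each tested member in AE over ISC (vertical axis), by class (horizontal axis), in young and aged mice, with filled points for FDR under 0.05 and a bar at the class median. The mitochondrially encoded genes lie between 1.07 (mt-Atp8) and 2.95 (mt-Co2), 2 genes with low counts, and the 7 well-counted ones between 1.44 and 2.82. Complex I assembly factors reach -2.42, and the 11 common complex IV subunits have no filled point.

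Share of all counts and TMM scaling gave different pictures for the nuclear genes. With library totals in place of TMM factors, a setting added after the data were seen, 1 nuclear member was called higher and 49 lower in young mice, and 1 higher and 69 lower in aged mice, in place of 10 and 12 and of 13 and 18. The median of all genes moved with it, to -0.56 (0.15 under TMM) in young mice and -0.91 (-0.13 under TMM) in aged mice. Set against that shifted median, structural subunits had a median of -0.57 in young and -0.77 in aged mice, close to the median gene in young and above it in aged mice. Assembly factors had medians of -1.23 and -1.53, below the median gene at both ages, as they were under TMM. Over all tested mitochondrially encoded genes, those with few counts included, the median stayed above 0, at 1.34 in both young and aged mice.

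Among the core and accessory subunits of complex I, few passed the test. Of the 7 core subunits, among them those that carry the flavin and the iron-sulphur clusters, none was called in young mice and Ndufs8 was lower in aged mice (log2 fold change -0.56, SE 0.21, FDR 0.033), a call lost without ISC replicate 1 or 2 or AE replicate 2 or 3 (FDR 0.0851 to 0.122). The core subunits Ndufs1 and Ndufv1 had log2 fold changes of 0.17 and 0.057 in young mice and 0.030 and -0.080 in aged mice, neither called. Of 29 accessory subunits, 3 were higher in young mice, while 4 were higher and 2 lower in aged mice. Ndufa1, a small subunit of the membrane arm, measured 41.2, 64.7 and 64.1 CPM in young ISC, 51.7, 64.0 and 43.2 in aged ISC, 84.7, 93.1 and 107.7 in young AE and 95.3, 101.7 and 71.0 in aged AE. Every AE library was above every ISC library. It rose by 0.75 on the log2 scale (SE 0.21, FDR 0.014) in young and 0.68 (SE 0.20, FDR 0.012) in aged mice. Ndufa6 and Ndufb3, chosen for naming after their values were seen, rose in the same comparisons by 0.68 and 0.64 in young and 0.60 and 0.66 in aged mice. Ndufb11 fell by 0.62 (SE 0.19, FDR 0.015) in aged mice, a call lost without ISC replicate 1 or 2 or AE replicate 3 (FDR 0.0530 to 0.0543). The call of Ndufa1 was lost without young AE replicate 3 (FDR 0.0632) and, in aged mice, without AE replicate 2 (FDR 0.0565). With library totals the log2 fold change of Ndufa1 was 0.044 in young and -0.093 in aged mice, so its rise holds only relative to most other genes.

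Complex II, succinate dehydrogenase, also belongs to the citric acid cycle. All 4 of its subunits had positive log2 fold changes at both ages, and 2 were called in young and 1 in aged mice. Sdhb, the iron-sulphur subunit (GRCm38 chr4:140961200-140979190), measured 196, 282 and 311 CPM in young ISC, 267, 329 and 183 in aged ISC, 425, 463 and 378 in young AE and 492, 408 and 448 in aged AE. The ISC and AE libraries did not overlap at either age. The rise was 1.60-fold (log2 0.68, SE 0.21, FDR 0.024) in young and 1.64-fold (log2 0.72, SE 0.225, FDR 0.017) in aged mice. Sdhd, a membrane anchor, rose in young mice (log2 0.59, SE 0.22, FDR 0.047), a call lost without any library but ISC replicate 3 (FDR 0.0785 to 0.174), and had a log2 fold change of 0.51 (FDR 0.075) in aged mice. The flavoprotein Sdha (0.18 and 0.23) and the anchor Sdhc (0.31 and 0.28) were not called. Under library totals the log2 fold change of Sdhb was -0.013 in young and -0.053 in aged mice, and in young mice its call was lost on leaving out ISC replicate 1 or 2 (FDR 0.064 and 0.055) or AE replicate 1 or 2 (FDR 0.069 and 0.098), and in aged mice without AE replicate 1 (FDR 0.054).

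In complex III, 1 of 8 subunits was called in young mice and 2 in aged mice. Uqcrfs1, the Rieske iron-sulphur protein, measured 186 to 313 CPM in young ISC and 364 to 450 in young AE, and 185 to 316 CPM in aged ISC against 313 to 466 in aged AE, where the ranges overlapped. It rose by 0.68 (SE 0.22, FDR 0.029) in young and 0.64 (SE 0.24, FDR 0.035) in aged mice. Uqcr10, a small subunit, fell by 0.65 (SE 0.22, FDR 0.0245) in aged mice, although its ISC values of 118 to 220 CPM overlapped the AE values of 107.5 to 130.2. That call was lost without ISC replicate 1 or 2 or AE replicate 2 or 3 (FDR 0.0626 to 0.0965). The core protein Uqcrc1 had log2 fold changes of 0.22 and 0.096. The call of Uqcrfs1 was lost with library totals (log2 -0.016 in young and -0.13 in aged mice) and without any of 4 libraries at each age (FDR 0.069 to 0.114 in young mice without ISC replicate 1 or 2 or AE replicate 2 or 3, and 0.0945 to 0.120 in aged mice without ISC replicate 1 or 3 or AE replicate 1 or 2).

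None of the 11 common subunits of complex IV, cytochrome c oxidase, was called at either age. In young mice, Ndufa4 (-0.029) had the lowest and Cox6a1 (0.42) the highest log2 fold change, and in aged mice Cox7c (-0.28) and Cox6a1 (0.51) did. The 95% intervals of 11 of 11 in young and 10 of 11 in aged mice lay within a 2-fold change either way, and 4 and 3 lay within 1.5-fold. Cox4i1 measured 545, 778 and 893 CPM in young ISC against 810, 887 and 753 in young AE.

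The isoforms and relatives outside that common set behaved differently. Cox7a1, known as the heart and muscle form of subunit 7a, was the nuclear complex IV subunit with the largest called rise at both ages (chr7:30184144-30186078). It measured 6.56, 11.3 and 33.6 CPM in young ISC, 11.5, 31.0 and 9.46 in aged ISC, 131.9, 107.2 and 98.8 in young AE and 154.0, 97.0 and 109.0 in aged AE. Every AE library was above every ISC library. The rise was 6.54-fold (log2 2.71, SE 0.59, FDR 0.0080) in young and 6.61-fold (log2 2.72, SE 0.47, FDR 0.0014) in aged mice, and the call held in 16 of 16 alternatives at each age, library totals included. Within ISC, the libraries with the most Cox7a1, young replicate 3 and aged replicate 2, were also those with the highest summed enterocyte markers (10356 and 5849 CPM, against 4352 and 4118 in the other young and 1856 and 2739 in the other aged libraries); the part of enterocyte RNA in these ISC values was not tested. Of 5 muscle genes listed as a check, Myh7, Ckm and Myl1 were at 3 counts or fewer in every library, Tnnt2 was not called, and Acta1 was higher in AE (log2 2.92 and 3.60).

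The ubiquitous form Cox7a2 measured 121 to 228 CPM in young ISC and 220 to 268 in young AE and was not called (log2 0.37 and 0.35). Per kilobase of annotated exon, Cox7a1 made up 8.72, 8.03 and 21.6% of the sum of Cox7a1 and Cox7a2 in young ISC and 48.8, 41.4 and 44.2% in young AE. In aged mice the shares were 10.2, 19.5 and 11.6% in ISC and 50.6, 42.6 and 46.8% in AE. Per length of merged annotated exons, Cox7a1 was thus close to Cox7a2 in every AE library and well below it in every ISC library. The third relative, Cox7a2l, moved the other way. It measured 97.7, 147.0 and 137.4 CPM in young ISC, 148.8, 183.9 and 103.0 in aged ISC, 65.1, 80.0 and 61.6 in young AE and 71.9, 60.9 and 67.6 in aged AE. It fell 1.85-fold (log2 -0.89, SE 0.20, FDR 0.0053) in young and 2.29-fold (log2 -1.20, SE 0.21, FDR 0.00054) in aged mice. Of its 50-base stretches, 13.8% also occur in a processed pseudogene, so reads from these could not be placed. Cox6b2, a testis form, rose in aged mice (log2 1.21, SE 0.36, FDR 0.013), with 1.82 to 5.05 CPM in ISC and 6.36 to 9.82 CPM in AE. In young mice it was not called (log2 0.61), and its 3.86 to 8.03 CPM in ISC overlapped the 4.22 to 17.7 CPM in AE. Cox6a2 and Ndufa4l2 had at most 20 and 6 counts in any library.

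**Figure D2:**
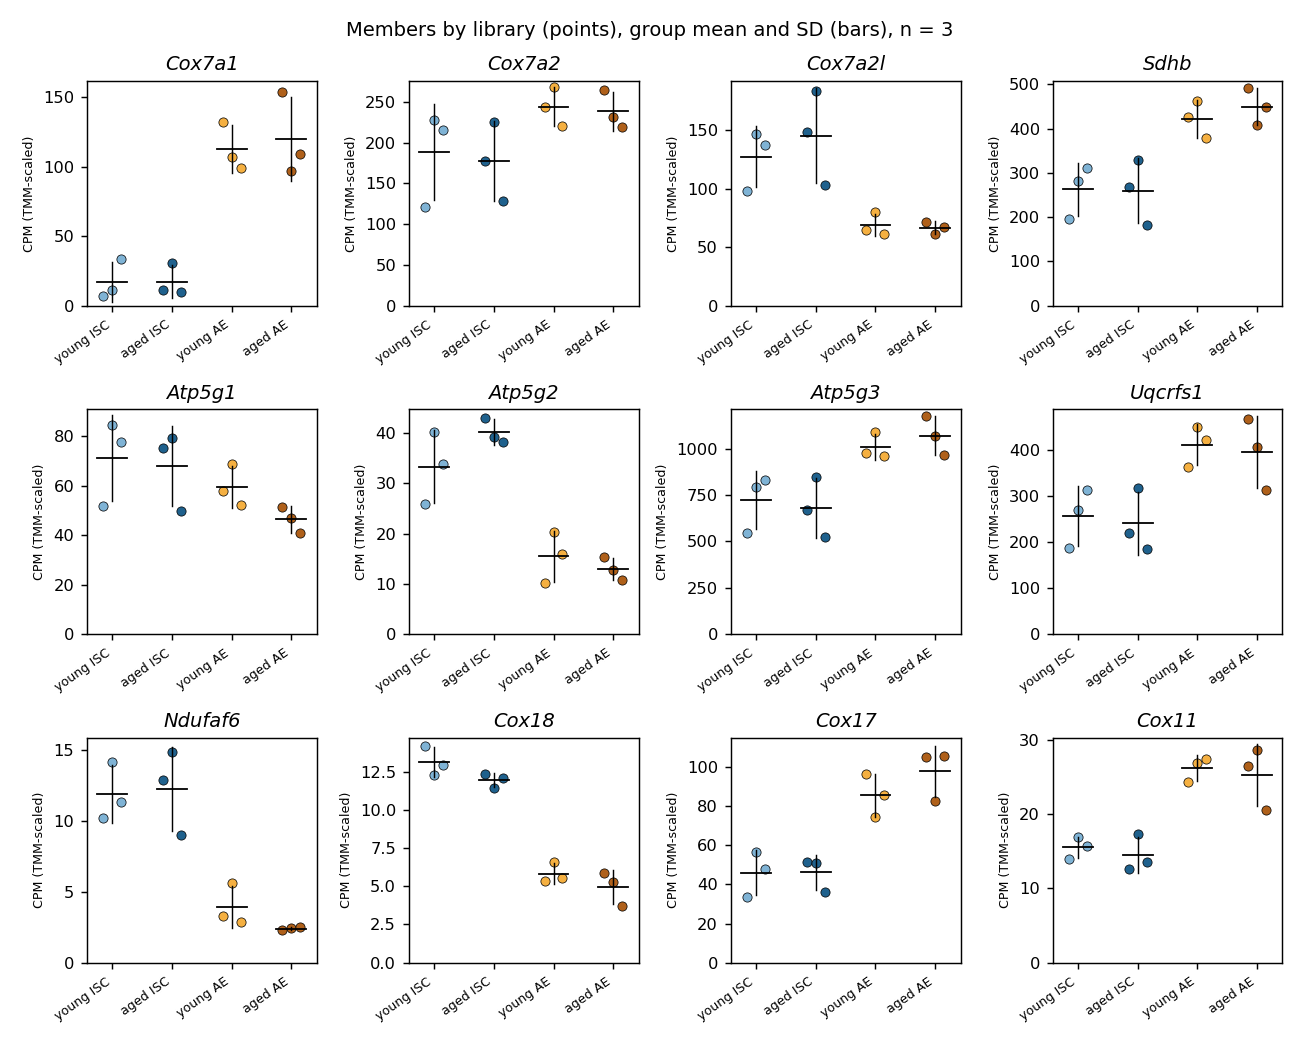
CPM (TMM-scaled, vertical axis) of 12 members in each library, by group (horizontal axis), with a horizontal bar at the mean and a vertical bar of 1 SD either way (n = 3). In every panel but Atp5g1, Cox7a2 and Uqcrfs1 the 3 AE libraries of an age lie on one side of the 3 ISC libraries of that age.

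For complex V, ATP synthase, 2 of 16 genes were lower and none higher in young mice, and 3 were lower and 1 higher in aged mice. The catalytic subunits Atp5a1 (log2 0.11 and 0.014) and Atp5b (0.21 and 0.12) were not called. The c-ring of the enzyme is made from one mature protein that 3 genes encode, and these genes diverged. Atp5g2 (chr15:102662860-102672350) measured 25.9, 40.3 and 33.8 CPM in young ISC, 43.1, 39.3 and 38.2 in aged ISC, 10.1, 20.4 and 15.9 in young AE and 15.3, 12.8 and 10.8 in aged AE. No AE library reached the lowest ISC library. It fell 2.16-fold (log2 -1.11, SE 0.28, FDR 0.0095) in young and 3.25-fold (log2 -1.70, SE 0.18, FDR 1.38e-05) in aged mice, with the call kept in 16 of 16 alternatives at each age. Atp5g1 had a log2 fold change of -0.26 (FDR 0.32) in young mice and fell by 0.63 (SE 0.20, FDR 0.018) in aged mice, a call lost without ISC replicate 1 or 2 or AE replicate 3 (FDR 0.0612 to 0.0661). Atp5g3, the most abundant of the 3, measured 542 to 833 CPM in young ISC and 960 to 1091 in young AE, with a log2 fold change of 0.48 (FDR 0.10), and rose in aged mice by 0.58 (SE 0.23, FDR 0.047). Per kilobase, Atp5g3 made up 89.8 to 91.4% of the 3 in young ISC, 87.9 to 90.7% in aged ISC, 95.03 to 96.2% in young AE and 96.5 to 96.8% in aged AE. The lengths merge the exons of all annotated transcripts, 4912 bases for Atp5g1 and 2181 for Atp5g3, so shares between genes depend on that annotation. The share of Atp5g2 went from 4.83 to 8.35% over the 6 ISC libraries to 1.30 to 2.31% over the 6 AE libraries. Of the 50-base stretches of Atp5g2, 36.7% also occur in a processed pseudogene on chromosome 7, and 11.1% of those of Atp5g1 occur elsewhere, so their absolute levels are uncertain. The call of Atp5g3 in aged mice was lost on leaving out any library but ISC replicate 2 (FDR 0.057 to 0.134), and its log2 fold change was -0.19 with library totals. Atp5s, known as factor B of the enzyme and named after its values were seen, was lower at both ages (log2 -0.81 and -0.85, FDR 0.014 and 0.013).

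The assembly factors fell most as a class in complex I. Of 9, Ndufaf1, Ndufaf2, Ndufaf4, Ndufaf5, Ndufaf6 and Ndufaf7 were lower in AE at both ages, and none was higher; apart from Ndufaf6 they are named here after their values were seen. Ndufaf6 (chr4:11051045-11076205) fell the most. It measured 10.2, 14.2 and 11.3 CPM in young ISC, 12.9, 14.8 and 9.02 in aged ISC, 3.27, 5.63 and 2.86 in young AE and 2.28, 2.42 and 2.51 in aged AE. The fall was 3.13-fold (log2 -1.64, SE 0.32, FDR 0.0028) in young and 5.35-fold (log2 -2.42, SE 0.28, FDR 2.69e-05) in aged mice. Ndufaf5, which modifies the core subunit Ndufs7, fell by 1.51 and 1.66 on the log2 scale, and Ndufaf2 fell by 1.38 and 1.65. Ndufaf4 fell by 1.04 and 1.38, Ndufaf7 fell by 1.10 and 1.41, and Ndufaf1 fell by 0.89 and 1.12. The remaining 3, Ndufaf3, Ndufaf8 and Atp5sl, had log2 fold changes of 0.18, -0.40 and 0.16 in young mice and -0.18, -0.29 and 0.053 in aged mice.

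The 9 complex IV assembly factors split in 2 directions. Cox17, the copper chaperone of the intermembrane space, measured 33.7, 56.5 and 47.7 CPM in young ISC and 96.7, 74.6 and 85.7 in young AE. In aged mice it measured 51.6, 51.1 and 35.98 CPM in ISC and 105.2, 82.8 and 106.0 in AE, and the groups did not overlap at either age. It rose by 0.90 (SE 0.21, FDR 0.0071) in young and 1.01 (SE 0.18, FDR 6.70e-04) in aged mice, but only by 0.19 and 0.23, not called, with library totals. Cox11, which inserts copper into the catalytic core, rose by 0.75 and 0.73, and Cox16 by 0.69 and 0.64; Cox19, another protein of copper handling, was called in aged mice (0.55, FDR 0.033) and had 0.40 (FDR 0.073) in young mice. Among the members that fell, Cox18, which inserts part of the mitochondrially encoded subunit 2 into the membrane, measured 14.2, 12.3 and 12.97 CPM in young ISC and 5.32, 6.62 and 5.53 in young AE. It fell 2.27-fold (log2 -1.18, SE 0.22, FDR 0.0022) in young and 2.52-fold (log2 -1.33, SE 0.23, FDR 0.000502) in aged mice. Cox20, its partner on the same subunit, fell by 0.66 and 0.69. Cox10, an enzyme of haem A synthesis, fell by 0.69 and 1.05, and Cox15, the next enzyme of that path, fell by 0.81 (FDR 0.0027) in aged mice and had -0.40 (FDR 0.076) in young mice. Cox14 was not called. Cox11, Cox16, Cox19, Cox20, Cox10 and Cox15 are named for this comparison after their values were seen. Assembly factors had lower levels than subunits in the median, with overlapping ranges. The median over genes of the mean CPM per kilobase was 107.9 for the 74 structural subunits and 10.5 for 17 assembly factors in young ISC, and 115.2 and 10.9 in young AE. In young ISC, subunits went down to 5.06 (Atp5l) and assembly factors up to 82.7 (Cox14) CPM per kilobase. The lengths merge the exons of all annotated transcripts, 6443 bases for Atp5l, so values per kilobase depend on that annotation.

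RefSeq promoter windows (GRCm38.p6, 250 bases before to 50 after the start) were found for 84 of the 102 nuclear members. They were searched on both strands for 3 strings: the palindromic NRF1 string, spelled in capitals in the windows shown, CCGGAAG (ETS, the family of GABPA) and AAGATGGC (YY1). The ETS string ends with the letters AAG that open the YY1 string, so that these strings can overlap. NRF1 and GABPA are known activators of respiratory genes. The NRF1 string was in 8.33% of member windows against 1.07% of all 27025 genes with a window, the ETS string in 27.4% against 9.93%, and the YY1 string in 16.7% against 3.19%. In the 15 assembly factors with a window the shares were 13.3, 46.7 and 26.7%, and in the 63 structural subunits 7.94, 25.4 and 15.9%. The windows of the c-ring gene Atp5g2 and the assembly factor Ndufaf4, both lower in AE, and of Cox7a1, the subunit that rose, are shown because they hold and lack the NRF1 string, which is in capitals. A match of letters is not a shown binding site. The NRF1 string was in 7 of 84 member windows, among them 2 of 15 assembly factors and 5 of 63 structural subunits. The windows shown were picked with the directions known, and whether the string goes with direction was not tested. These windows lie at chr15:102670998-102671297 on the minus strand, chr4:24897833-24898132 on the plus strand and chr7:30183921-30184220 on the plus strand.
Atp5g2: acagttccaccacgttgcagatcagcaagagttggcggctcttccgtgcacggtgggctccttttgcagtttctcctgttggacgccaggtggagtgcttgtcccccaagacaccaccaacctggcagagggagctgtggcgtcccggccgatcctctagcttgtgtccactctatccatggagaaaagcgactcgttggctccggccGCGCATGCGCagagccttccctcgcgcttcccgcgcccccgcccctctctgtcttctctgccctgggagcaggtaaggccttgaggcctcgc
Ndufaf4: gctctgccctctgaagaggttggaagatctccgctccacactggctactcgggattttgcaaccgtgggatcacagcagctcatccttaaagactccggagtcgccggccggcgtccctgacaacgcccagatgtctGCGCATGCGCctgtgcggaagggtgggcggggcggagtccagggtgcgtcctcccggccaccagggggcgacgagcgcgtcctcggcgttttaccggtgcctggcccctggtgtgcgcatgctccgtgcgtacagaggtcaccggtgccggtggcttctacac
Cox7a1: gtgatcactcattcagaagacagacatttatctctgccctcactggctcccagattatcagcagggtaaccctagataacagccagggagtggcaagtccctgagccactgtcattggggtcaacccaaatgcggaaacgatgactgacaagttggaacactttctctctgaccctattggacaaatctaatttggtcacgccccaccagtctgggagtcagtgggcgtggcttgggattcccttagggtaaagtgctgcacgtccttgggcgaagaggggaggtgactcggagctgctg

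The 13 mitochondrially encoded genes could not all be read equally well. The table counts reads of 50 bases that mapped to 1 place, and parts of the mitochondrial genome have nuclear copies. Of 50-base positions of mt-Co2, 100% also occur at another annotated locus, as do 99.9% of mt-Co3, 99.5% of mt-Atp6, 98.8% of mt-Nd4l, 98.0% of mt-Nd3, 62.2% of mt-Nd4, 51.1% of mt-Co1, 8.19% of mt-Nd2 and 7.61% of mt-Nd5. None was found for mt-Nd1, mt-Nd6, mt-Cytb and mt-Atp8. The copies of mt-Co2, mt-Atp6, mt-Co3, mt-Nd3, mt-Nd4l and mt-Nd4 lie side by side on chromosome 1 between 24611535 and 24615565 and have no row in the count table. The first 60 bases of mt-Co2 (chrMT:7013-7072) and of its copy Gm28661, and a stretch of mt-Co1 (chrMT:5332-5391) with its copy Gm13340 on chromosome 2, are shown to make the difference visible, with the bases that differ in capitals. The first pair has 0 and the second 2 differing bases, so that a 50-base read from the first pair fits both places, whereas a read that covers a differing base of the second fits 1.
mt-Co2: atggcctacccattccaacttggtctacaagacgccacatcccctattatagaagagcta
Gm28661: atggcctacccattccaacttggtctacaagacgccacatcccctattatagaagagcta
mt-Co1: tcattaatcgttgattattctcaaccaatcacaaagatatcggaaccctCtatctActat
Gm13340: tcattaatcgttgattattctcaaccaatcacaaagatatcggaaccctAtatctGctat

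Accordingly, 7 genes (mt-Nd1, mt-Nd2, mt-Nd4, mt-Nd5, mt-Nd6, mt-Cytb and mt-Co1) held 9993777 counts over the 12 libraries, and the other 6 held 2048. For 5 of the 6, nearly all positions are shared, so their counts do not measure the level of their RNA. For mt-Atp8, no shared position was found, but a copy outside the annotated transcripts would not have been seen. It lies between mt-Co2 and mt-Atp6 and overlaps the latter, and the copies of these 2 genes are neighbours on chromosome 1. The cause of its low count was not tested. Fold changes are read from the 7.

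**Figure D3:**
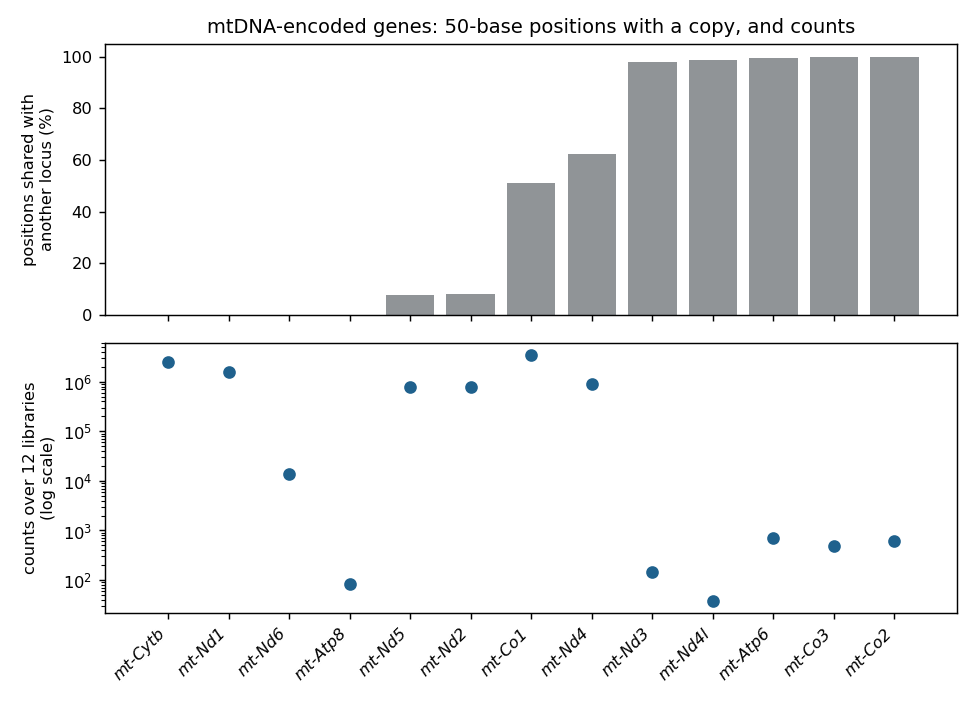
Share of 50-base positions of each mitochondrially encoded gene that also occur at another annotated locus (upper panel, percent) and its counts summed over the 12 libraries (lower panel, log scale). The 5 genes with 98.0 to 100% shared positions have 38 to 690 counts. For mt-Atp8, with 82 counts, 0% was found, but a copy outside the annotated transcripts would not be seen.

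All 7 well-counted genes were higher in AE at both ages. The log2 fold changes ran from 1.44 (mt-Nd2) to 2.30 (mt-Nd6) in young mice, with a median of 1.88, SE of 0.49 to 0.65 and FDR of 0.0064 to 0.036. In aged mice they ran from 1.97 (mt-Nd1) to 2.82 (mt-Co1), with a median of 2.37, SE of 0.25 to 0.48 and FDR of 9.98e-06 to 0.0011. mt-Co1, the catalytic subunit of complex IV, measured 7560, 3252 and 2582 CPM in young ISC, 3742, 2103 and 4952 in aged ISC, 27529, 10004 and 20524 in young AE and 22291, 18601 and 39432 in aged AE. Every AE library was above every ISC library. mt-Cytb, the cytochrome b of complex III, measured 7491, 2993 and 2362 CPM in young ISC and 16860, 7267 and 14760 in young AE, so that young AE replicate 2 lay just below young ISC replicate 1. It rose by 1.60 (SE 0.54, FDR 0.0325) in young and 2.07 (SE 0.41, FDR 0.0011) in aged mice. Of the other 6 genes, mt-Co2 had the largest log2 fold change at both ages among the genes called (2.36 and 2.95), on 5 to 21 counts per library in young ISC and 27 to 308 in young AE. mt-Nd6, the only well-counted gene on the light strand, had the lowest level at 17.9 to 63.1 CPM per 1000 unique positions in young ISC, where mt-Co1 had 3532 to 10342. Whether reads were counted by strand is not given in the sources used here, so reads of the opposite strand cannot be told apart from its own. How well the poly(A) selection captured the RNA of each gene was not tested, so the gap between these genes need not be one of RNA level.

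The mitochondrial rise was stable in direction and less so in its calls in young mice. Mitochondrially encoded members called higher fell from 11 to 5 without young ISC replicate 2 or 3, to 6 without young AE replicate 1 or 3, and to 3 with library totals. Those 3 were mt-Co2, mt-Co3 and, alone of the well-counted genes, mt-Nd5. Among the well-counted genes, mt-Nd5 alone kept its call without each library in turn; mt-Co1 lost it without ISC replicate 2 (FDR 0.0528), and mt-Cytb, mt-Nd1, mt-Nd2, mt-Nd4 and mt-Nd6 lost it without 3 or 4 of the libraries (FDR 0.0561 to 0.120). In aged mice 10 or 11 were called in each alternative. Summed over the 7 genes, the level was 26399, 10560 and 8600 CPM in young ISC, 13381, 7327 and 16480 in aged ISC, 70345, 29512 and 59801 in young AE and 60970, 49342 and 92626 in aged AE. The ratio of this sum to that of the 74 nuclear structural subunits was 0.389 to 1.73 in young ISC, 0.319 to 1.13 in aged ISC, 1.21 to 3.28 in young AE and 2.33 to 4.65 in aged AE. Reads of positions shared with another locus (51.1% of mt-Co1 and 62.2% of mt-Nd4) are missing from the mitochondrial sum, so these ratios understate it.

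The stem cell libraries differed among themselves. Young ISC replicate 1 was the lowest of its group for 74 of 74 nuclear structural subunits, and aged ISC replicate 3 for 72 of 74. Summed over these subunits, the level was 15233, 21201 and 22135 CPM in young ISC, while aged ISC measured 19363, 22974 and 14647, against 20531 to 24450 in young AE and 19911 to 23603 in aged AE. The same 2 libraries had the highest mitochondrially encoded sum of their groups. What made them differ was not tested. Without young ISC replicate 1 the median log2 fold change of structural subunits in young mice was -0.044 in place of 0.13, and 5 nuclear members were called higher and 17 lower in place of 10 and 12. Without aged ISC replicate 3 it was -0.20 in place of 0.0037, and 8 nuclear members were called higher and 31 lower in place of 13 and 18. The assembly factor medians moved less, to -0.67 and -0.78.

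**Figure D4:**
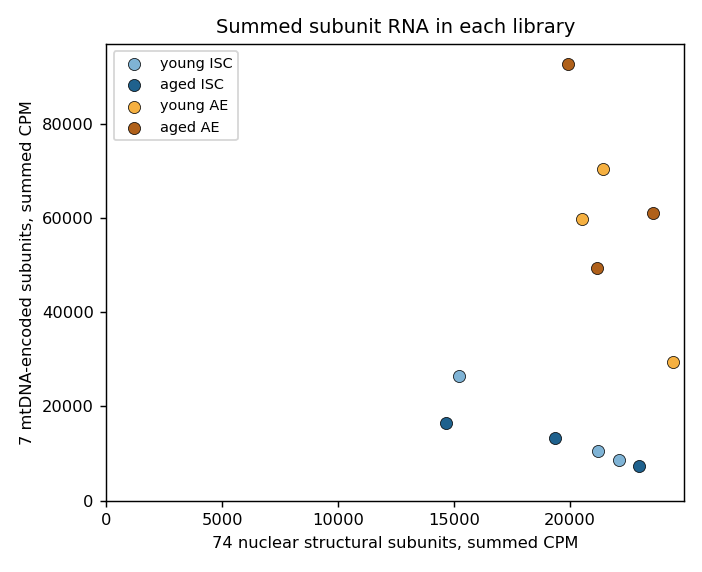
Summed CPM of the 7 well-counted mitochondrially encoded genes (vertical axis) against that of the 74 nuclear structural subunits (horizontal axis), with 1 point per library coloured by group. AE libraries sit at 29512 to 92626 on the vertical axis and ISC libraries at 7327 to 26399, and the 2 leftmost points are young ISC replicate 1 and aged ISC replicate 3.

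Related genes outside the name rule were taken from lists. Of 29 further assembly factors, 3 were higher and 9 lower in young mice and 4 higher and 13 lower in aged mice, with medians of -0.27 and -0.45. As for the other lists here, the shares to set beside these counts are those of all genes tested, 28.9% higher and 26.7% lower in young and 30.6% and 34.2% in aged mice. Bcs1l, which places the Rieske protein into complex III, fell by 1.91 and 2.90 on the log2 scale, and Nubpl, an iron-sulphur carrier for complex I, fell by 1.54 and 2.36. The copper proteins Sco1 and Sco2 rose by 0.60 and 2.01 in young and 0.43 and 1.70 in aged mice. Of 10 carriers and partners of the chain, 3 were higher and none lower at each age, a share of higher calls near that of all genes. These were cytochrome c (Cycs, 1.28 and 1.69), the ADP/ATP carrier Slc25a5 (1.11 and 1.17) and the phosphate carrier Slc25a3 (0.82 and 0.91). Of 17 genes of mitochondrial transcription and its regulation, 13 were lower and 2 higher at each age. The members that fell include Tfam, which packages mitochondrial DNA (-1.69 and -1.98), the helicase Twnk (-2.35 and -2.80), the RNA polymerase Polrmt (-0.81 and -1.25), Lrpprc, which stabilises mitochondrial mRNA (-1.34 and -2.01), and Nrf1 (-0.69 and -0.67). The 2 that rose were the coactivator Ppargc1a (2.85 and 2.92) and its partner Esrra (1.24 and 1.44). These lists are described by their counts and medians, and the stem cell and proliferation markers also fell in AE in full (12 of 12 and 14 of 14 at each age); the part of cell division in these values was not tested.

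The next question was whether age changed any of these genes. In ISC, none of 108 members was called (edgeR quasi-likelihood test), as none of 15552 genes was (0%), and none was under an unadjusted P of 0.05, against 5.04% of all genes. In AE, none of 110 members was called, again with 0% of 16265 genes, and none was under an unadjusted P of 0.05, against 4.79%. DESeq2 called none of the members in either cell type, although it called other genes in both, as given in the closing section. The study reported genes called for age in both cell types with DESeq2, some of them also found by RT-qPCR in other mice. The 0% of edgeR's test therefore does not show that no gene changed. The 2 ages overlapped for every member tested in ISC, where 8.86% of all genes did not overlap. In AE they did not overlap for 5 members, each lower in aged mice, against 6.94% of all genes lower without overlap. These 5 were Ndufab1, Ndufa12, Ndufaf6, Cox10 and Atp5g1. A p that misses the threshold does not show equal levels, and the intervals bound the differences. In AE, the 95% interval lay within a 1.5-fold change for 68 of 74 structural subunits and within 2-fold for 74. In ISC, where libraries varied more, it lay within 1.5-fold for 30 and within 2-fold for 73.

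In ISC, the members with the lowest P among those higher in aged mice were Atp5g2 (log2 0.28, SE 0.18), mt-Atp8 (1.03, on at most 12 counts per ISC library) and Cox7c (0.20, SE 0.20). Those lower were Cox6b2 (-0.89, SE 0.40), Ndufab1 (-0.15, SE 0.19) and mt-Nd2 (-0.35, SE 0.45). The FDR in edgeR's test was 0.986 for Cox6b2 and 1.00 for the other 5. Cox6b2 measured 6.76, 3.86 and 8.03 CPM in young and 5.05, 2.81 and 1.82 CPM in aged ISC. The values of the 2 ages overlapped. Without young ISC replicate 1, Cox7c had -0.0011 and mt-Nd2 had 0.30, so the sign of both depended on that library. The structural subunits had a median of -0.020 and a range of -0.15 to 0.28 (median -0.21 without young ISC replicate 1 and 0.17 without aged ISC replicate 3), and the 18 assembly factors a median of -0.057. The 7 mitochondrially encoded genes ranged from -0.42 (mt-Nd4) to 0.087 (mt-Nd6), with SE of 0.44 to 0.57. Their 95% intervals reached from -1.79 to 1.28. None of the 7 had an interval within a 2-fold change, so a larger change was not excluded for any of them.

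In AE, Atp5g1 had the lowest P. It measured 57.9, 68.7 and 52.0 CPM in young and 51.2, 47.1 and 40.7 CPM in aged AE, without overlap, and its log2 fold change was -0.34 (SE 0.17, FDR 0.844 in edgeR's test). Cox10 (-0.34, SE 0.18) and Cox15 (-0.39, SE 0.22) followed among those lower. mt-Atp6 (0.48, SE 0.33), Ndufa2 (0.23, SE 0.17) and mt-Nd3 (0.71, SE 0.50) led those higher, and these 5 genes had the same FDR of 0.844. Nearly all positions of mt-Atp6 and mt-Nd3 are shared with another locus, so their values do not measure the level of their RNA. Ndufaf6, at 3.27, 5.63 and 2.86 CPM in young and 2.28, 2.42 and 2.51 CPM in aged AE, had -0.63 (SE 0.39). Structural subunits had a median of -0.029 and ranged from -0.34 to 0.23, and assembly factors a median of -0.10. The 7 mitochondrially encoded genes ranged from 0.15 (mt-Nd4) to 0.49 (mt-Co1), with 95% intervals reaching from -0.58 to 1.43.

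**Figure D5:**
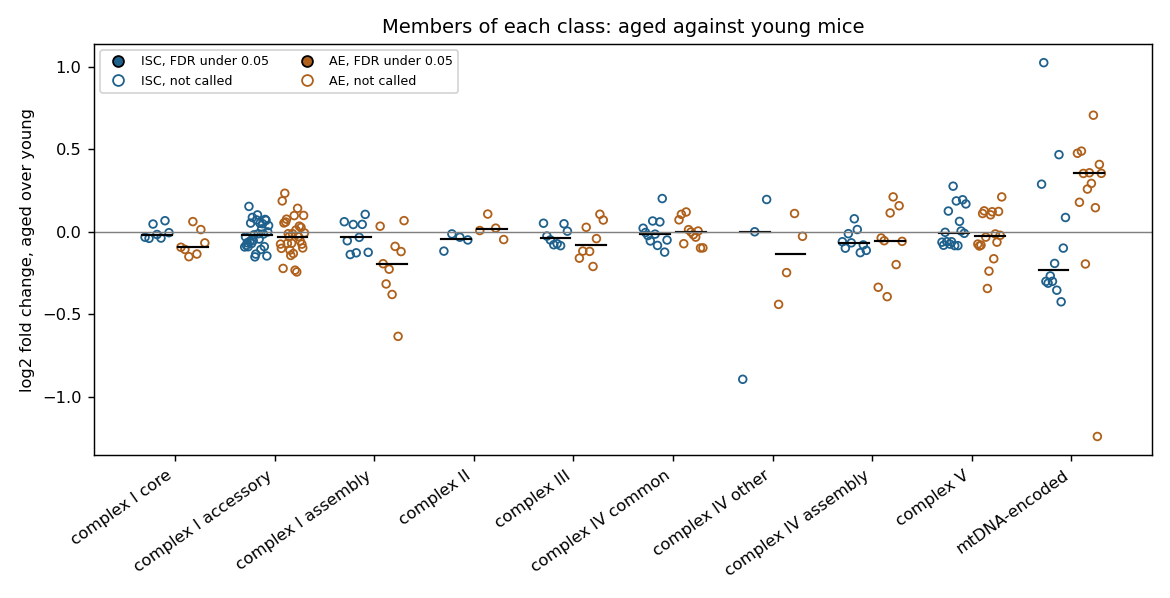
Log2 fold change of each tested member in aged over young mice (vertical axis), by class (horizontal axis), in ISC and AE, with a bar at the class median. No point is filled, as no member reached an FDR under 0.05, and the 74 structural subunits lie between -0.34 and 0.28.

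Markers of cell types were summed beside these values, and none of the markers given here was called for age. The summed enterocyte markers were 4118 to 10356 CPM in young and 1856 to 5849 CPM in aged ISC, with a median log2 fold change of -0.94 over 16 genes. In AE they summed to 74891 to 95983 CPM in young and 99284 to 116996 CPM in aged mice, without overlap (median 0.29), and the myeloid genes to 118 to 3383 and 3893 to 4714 CPM, also without overlap although the median of the 8 tested was below 0 (-0.37). Of the myeloid genes, S100a8 and S100a9 were at 3 counts or fewer in every AE library, and Lyz2, Csf1r and Adgre1 in every aged AE library. The 11 T cell markers summed to 8.08 to 24.9 CPM in young and 2.67 to 3.24 CPM in aged ISC, where Cd3e, Cd3d, Cd8a, Trac and Nkg7 were at 3 counts or fewer in every library, and they summed to 15.7 to 49.8 CPM in young and 13.4 to 57.2 CPM in aged AE. In AE the 14 proliferation markers summed to 97.6 to 493 CPM in young and 118 to 123 CPM in aged mice (median -1.25), and the 12 stem cell markers to 147 to 630 and 168 to 236 CPM (median -0.75). Both sums overlapped between the ages, and their highest young values came from AE replicate 2. The part of such cells in the members' values was not tested.

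Whether the age effect differed between AE and ISC was tested as an interaction over all 12 libraries. None of 111 members was called, against 0.00575% of 17377 genes (1 gene), and none was under an unadjusted P of 0.05, against 3.88%. DESeq2 called none of them, nor did the fit that paired AE and ISC libraries by the code they share. Lowest in P were Ndufaf6 (difference of log2 fold changes, AE minus ISC, -0.69, SE 0.42), Ndufa4l2 (on 12 counts in all libraries together, too few for a fold) and Atp5g2 (-0.52, SE 0.34), with an FDR of 1.00 for each in edgeR's test. For Atp5g2, the age values were 0.28 in ISC and -0.24 in AE. The intervals of the interaction lay within 2-fold for 69 of 74 structural subunits and for none of the 7 mitochondrially encoded genes, whose differences ran from 0.26 to 0.78 with SE of 0.61 to 0.74.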

How the data were processed

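Per the labels and the study's methods, libraries were made from poly(A) RNA of sorted cells and sequenced as 50-base single ends. The authors trimmed the reads with Trim Galore (0.4.4), aligned them to GRCm38 with HISAT2 (2.1.0) and deposited raw counts of uniquely mapped reads over the exons of merged transcripts; the annotation release is not given in the sources used here. Libraries were grouped by the column names of the count table, since in 8 of 12 titles the library code names another group. The main test was edgeR's quasi-likelihood test (TMM scaling, robust dispersion, genes with 10 counts or more in all libraries compared together) with Benjamini-Hochberg adjustment over all genes tested and a threshold of 0.05. The robust settings were chosen after calls under the older defaults had been seen. Standard errors are the log2 fold change divided by the root of the F statistic. The scripts were tested on simulated data.

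The members and lists were chosen with earlier results of these data known. Named genes were core subunits, mitochondrially encoded genes and isoform sets, the called member of each class with the largest rise and fall, and the 3 members of lowest P in each direction of an age comparison. Sharing of 50-base stretches was counted against the annotated transcripts. AE and ISC columns that share a code deviated together (correlations of 0.220 to 0.428 in 6 pairs, against -0.389 to 0.127 in 12 pairs of different codes), so an alternative fit took the codes as a block. The study's methods list the ages of 3 aged and 3 young mice for RNA sequencing. Whether a code is a mouse is not stated. The main fits of AE against ISC and of the interaction did not pair libraries, and their P values measure the spread between these libraries. The alternatives were other scalings, filters, DESeq2 and leaving out each library. Library totals of 11893817 to 110794420 counts set the precision. Some genes covered by the naming rule or the lists are not reported here by name.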

Additional observations from a re-analysis of the deposited data

How the results depend on the processing

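Cox7a1, Cox7a2l, Atp5g2, Ndufaf6 and Cox18 kept their direction and call in AE against ISC under all 16 alternatives at each age. With upper-quartile scaling, 5 nuclear members were called higher in young mice (10 as reported) and 8 in aged mice (13 as reported). With library totals, chosen after the data were seen, nuclear members called higher and lower numbered 1 and 49 in young and 1 and 69 in aged mice, and 3 mitochondrially encoded members were called higher in young mice. That setting reversed, in young mice, Sdhb (-0.013), Sdhd (-0.11) and Uqcrfs1 (-0.016) and, in aged mice, Sdhb (-0.053), Uqcrfs1 (-0.13), Atp5g3 (-0.19) and Ndufa1 (-0.093); by construction it leaves out the TMM factors. Without young ISC replicate 1, the age values in ISC of Cox7c (-0.0011) and mt-Nd2 (0.30) reversed, and leaving out each library in turn spanned -0.0011 to 0.33 for Cox7c and -0.64 to 0.30 for mt-Nd2; the cause was not tested. Leaving out 1 library gave 4 to 9 nuclear members higher and 10 to 17 lower in young mice, with 5 to 11 mitochondrially encoded members higher, and 6 to 22 and 13 to 31 in aged mice, with 10 to 11; the 22 came without aged ISC replicate 2.

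With the replicate block, 10 nuclear members were higher and 12 lower in young mice, with 10 mitochondrially encoded members higher, and in aged mice these counts were 18, 23 and 11; among the named genes it ended the call of mt-Atp8 in young mice alone (log2 fold change 1.66, FDR 0.103). No paired fit was possible for the age comparisons. No member was called for age or for the difference of age effects under any of the 15, 15 and 21 alternatives run, while over all genes DESeq2 called 58 in ISC, 18 in AE and 43 for the difference, and the block 19 for the difference (0, 0 and 1 as reported).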

Other observations

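Genes of the pathways that feed the respiratory chain were called in both directions between AE and ISC. Of 18 genes of the citric acid cycle, 6 were higher and 6 lower in young mice and 7 higher and 6 lower in aged mice (edgeR quasi-likelihood test, FDR under 0.05), near the shares of all genes tested, which were 28.9% higher and 26.7% lower in young and 30.6% and 34.2% in aged mice. Ogdh, a subunit of the oxoglutarate dehydrogenase complex, rose by 2.06 and 2.36 on the log2 scale, the malate dehydrogenase Mdh2 by 1.71 and 1.86 and citrate synthase Cs by 1.35 and 1.54. The NADP-dependent isocitrate dehydrogenase Idh2 fell by 1.67 and 2.12. Of 18 genes of glycolysis, 11 were higher and 2 lower in young mice and 12 higher and 3 lower in aged mice, beside the same shares of all genes, and the list as a whole was not tested. The phosphofructokinase Pfkp rose by 2.62 and 2.95 while its relative Pfkm fell by 1.25 and 1.35. The genes of both lists are named here after their values were seen. In the age comparisons none of either list was called.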
